A study of Mus musculus with 9 samples.

Results

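Leading edge basal cells of a healing tail wound were compared with basal cells of skin far from the wound, in 6 of the 9 arrays of the series and over 17097 genes. The members of the comparison were chosen from the sample titles: 3 arrays of leading edge (LE) cells, titled as positive for α5 integrin, and 3 arrays of control cells. A further 3 arrays of the proliferative hub, the zone behind the LE, shared the fit and are given beside the LE where a level is described. The cells were basal cells of the tail epidermis of CD1 mice, labelled as interfollicular, with no transgene or drug named and no age given for these animals in the labels, at day 4 (D4) after a wound 3 mm across. LE tissue was cut with a 4 mm punch around the wound and hub tissue with a 6 mm punch. Control tissue was another piece of skin of wounded animals, so it had not been cut but its donors had. Each array carried amplified RNA of 300 cells. A pool of 5 mice per sample is recorded, but the methods state it for duplicate samples, and this series has 3 arrays per group. The sort took living cells that carried α6 integrin, the laminin receptor of the basal layer, and lacked CD34, a marker of the hair follicle bulge, a gate that by the protocol can also hold infundibulum cells. LE cells were further gated as carrying α5 integrin and hub cells as lacking it, whereas the control titles name no α5 integrin gate, so the gate and the region cannot be told apart. The labels call the 3 arrays of a group biological replicates and the methods describe them as technical, so the tests set differences against sample-to-sample scatter that may be technical only.

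When the epidermis is cut, keratinocytes at the margin loosen their hold on the basement membrane, flatten, extend actin-rich protrusions and crawl as a sheet over a provisional matrix of fibrin and fibronectin, while cells behind them divide. Migrating keratinocytes are known for collagenases and other matrix metalloproteinases, for the fibronectin receptor α5β1 integrin and for the stress keratins 6 and 16. Ligands of the EGF receptor, activin and TGF-β, and BMP signals are the secreted cues best known in this setting, and hypoxia near the wound is known to switch cells to glycolysis. These facts are background and were not measured here.

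Values are log2 signals normalised by RMA, and a difference of 1 is a doubling of the signal. Differences are LE minus control, with the standard error of the fit. A gene was called where limma gave a Benjamini-Hochberg adjusted p under 0.05 over all 17097 genes, and every adjusted p below comes from that fit unless another is named. Each gene is shown by 1 probe set, the brightest on average across the 9 arrays. Array medians lay between 6.47 and 6.53 and the median of all values was 6.52. The 23 probe sets meant to measure background had a median of 4.66 and reached from 3.66 to 8.61, and folds that start near such levels are understated. Correlations between arrays lay between 0.988 and 0.995 within groups and between 0.964 and 0.968 between LE and control arrays. In sorted bulk samples fewer cells of a type and less RNA per cell cannot be told apart.

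Markers of the labelled cell type were high on average on every array, but no marker list covered suprabasal keratinocytes. Krt2 and Krt10, keratins of suprabasal layers, were bright in control too, with values given below. Krt14, the basal keratin, stood at 13.34, 13.30 and 13.27 on the LE arrays and at 13.28, 13.31 and 13.30 on the control arrays. Krt5, its partner, Trp63, the master transcription factor of stratified epithelium, and Col17a1, a hemidesmosome collagen, were high in both groups and were not called. The mean of 9 basal keratinocyte markers was 12.18, 12.16 and 12.14 at the LE and 12.01, 12.08 and 12.04 in control, with 4 members called higher and 1, Dst, called lower. Cd34 was near background in both groups, at 4.62, 4.81 and 4.95 at the LE and 4.60, 4.50 and 4.69 in control. Itga5, which encodes the gated α5 integrin, was 2.71 ± 0.21 higher at the LE, which follows from the gate and is no finding.

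Markers of most other cells lay near or below the median of all values, and those of myeloid cells moved with the comparison. The mean of 22 myeloid markers was 6.98, 6.54 and 6.94 at the LE, 6.49, 6.45 and 6.50 in the hub and 6.26, 6.16 and 6.33 in control. Of these, 5 were called higher (S100a8, S100a9, Lyz2, Cd14 and Cxcr2) and 1 lower (Ly6c1), while the macrophage genes Adgre1, Csf1r and C1qa were not called. S100a8 and S100a9 are also made by stressed keratinocytes. Lyz2, the lysozyme of myeloid cells, was uneven, at 8.25, 5.36 and 7.12 on the 3 LE arrays against 5.20, 5.07 and 4.92 in control. Its call (1.85 ± 0.55, adjusted p = 0.039) was lost with array weights (1.25, adjusted p = 0.176), with the 6 arrays alone (1.85, adjusted p = 0.0811), without LE replicate 1 (1.18, adjusted p = 0.0853) or 3 (1.74, adjusted p = 0.117) and without any 1 of the hub or control arrays (adjusted p from 0.0553 to 0.0927). Without LE replicate 2, 12 of the 22 myeloid markers were called higher. The log2 of the summed myeloid signal, which the brightest members set, was even over the LE arrays, at 12.40, 12.42 and 12.53, against 11.85, 11.71 and 11.98 in control. The mean of 14 endothelial markers was 7.07, 6.31 and 6.41 at the LE and 6.30, 6.17 and 6.08 in control, with 0 called. Of 14 fibroblast markers 1 was called higher and 3 lower, with means of 6.55, 6.38 and 6.52 at the LE and 6.76, 6.66 and 6.70 in control. Of 10 Langerhans cell markers 2 were called higher and 0 lower, with means of 7.01, 7.15 and 7.48 at the LE and 6.84, 6.87 and 6.84 in control. Cd207, the defining gene of these cells, was not called (-0.10 ± 0.10), though the class II gene H2-Ab1 read 7.88, 8.02 and 9.55 at the LE and 5.89, 6.16 and 6.37 in control. The mean of 8 sebaceous gland markers was above the median of all values on every array, at 8.0, 8.51 and 8.36 at the LE and 8.55, 7.54 and 7.82 in control, with 2 called higher. Of the T cell, melanocyte and hair shaft lists 1 marker each was called lower, and of the Merkel cell and skeletal muscle lists 1 each was called higher. The part of these cells in the results was not tested beyond a fit with the myeloid mean as a covariate, in which 735 genes were called, 719 of them among the 3891 called without it. That mean separated the groups itself, so the covariate and the group share much of their variation and cannot be told apart fully.

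**Figure D1:**
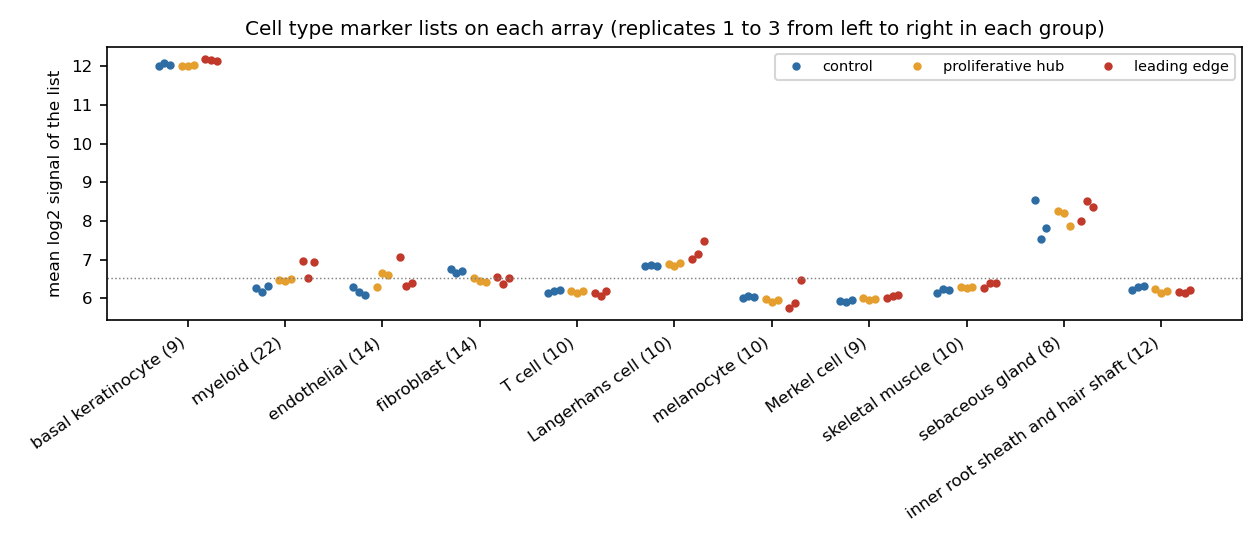
Mean log2 signal (y axis) of 11 cell type marker lists on each of the 9 arrays, with the number of genes measured in parentheses and replicates 1 to 3 from left to right within each colour. The dotted line marks 6.52, the median of all values. Basal keratinocyte markers lie near 12 in all groups, and the myeloid mean lies between 6.54 and 6.98 at the leading edge against 6.16 to 6.33 in control.

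Between LE and control cells 3891 genes were called, 22.8% of those tested. Of these, 2041 (11.9% of genes tested) were higher at the LE and 1850 (10.8%) were lower, and at an unadjusted p under 0.05 the count was 5713. The groups of 3 arrays did not overlap for 3857 of the called genes, against 36.2% of all genes. Rises reached further than falls: 453 genes rose (2.65%) and 350 fell (2.05%) at least 2-fold, 4.7% in all, 45 rose and 13 fell at least 8-fold, and 17 rose and 3 fell at least 16-fold. Of the 453, 109 had a control mean under the median of all values, where folds are compressed. Of the 350, 76 had an LE mean under it. For comparison, the same fit called 1816 genes (10.6%) between LE and hub and 1244 (7.28%) between hub and control.

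The 15 largest rises included genes of proteolysis, secreted signals, the cytoskeleton and the cornified envelope. Mmp9, gelatinase B, led with 13.02, 13.09 and 12.85 on the LE arrays against 7.62, 7.16 and 6.35 in control. Il24, a cytokine of the interleukin 10 family, followed with 11.88, 11.64 and 11.56 against 6.23, 6.48 and 6.18. Sh2d5, which encodes an adaptor protein with an SH2 domain, read 11.29, 11.25 and 11.15 against 6.37, 6.08 and 6.04, a 33.5-fold difference (adjusted p = 1.9e-07). In all 3 genes the lowest LE array lay over 4 log2 units above the highest control array, and the hub means were 8.80, 9.81 and 9.62.

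For some of these genes the hub was not called against control. Arg1, the arginase that makes ornithine and is also known from macrophages, was 10.13, 10.91 and 10.66 at the LE, 6.59, 6.74 and 6.25 in the hub and 6.34, 6.22 and 5.91 in control. Neu2, a cytosolic sialidase, was 10.07, 9.82 and 9.30 at the LE, 6.47, 5.87 and 5.33 in the hub and 4.74, 5.09 and 5.91 in control. Neither Arg1 (hub minus control 0.37 ± 0.20, adjusted p = 0.378) nor Neu2 (0.64 ± 0.35, adjusted p = 0.365) was called in the hub, while both were called between LE and hub (4.04 ± 0.20 and 3.84 ± 0.35, adjusted p = 9.98e-06 and 0.000169). Procr, the endothelial protein C receptor that also marks some progenitor cells, stood at 11.24, 11.14 and 10.95 at the LE and at 7.01, 6.82 and 6.77 in control, with a hub mean of 9.58. Mmp9 and Arg1 kept their calls with the myeloid covariate (6.38, adjusted p = 0.0185, and 5.23, adjusted p = 0.000587). Uox, urate oxidase, a liver enzyme of purine breakdown, was 10.58, 10.60 and 10.70 against 6.06, 5.95 and 6.11. Cpn1, the catalytic subunit of carboxypeptidase N, differed by 4.22 ± 0.11, and Tmigd1, a cell adhesion protein of the immunoglobulin family, by 4.05 ± 0.23. For Procr, Uox, Cpn1 and Tmigd1 the groups did not overlap, and each was higher in the hub than in control as well (hub minus control 2.71 ± 0.11, 1.75 ± 0.26, 2.23 ± 0.11 and 2.14 ± 0.23).

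The 15 largest falls included keratins of the scale regions of tail skin and secreted proteins. Krt2, a keratin of suprabasal scale epidermis, fell from 12.62, 12.54 and 12.61 in control to 5.99, 6.50 and 7.35 at the LE, and its hub values, 12.25, 12.35 and 12.38, were not called against control. Krt36 and Krt84, hard keratins otherwise known from hair, nail and tongue, fell (-4.68 ± 0.21 and -4.11 ± 0.18) to near the median of all values, with hub means of 11.96 and 10.84. Fcgbp, a mucin-like secreted protein, went from 12.37, 12.38 and 12.19 to 8.37, 8.74 and 8.65, a 13.2-fold lower signal. Gpha2, a subunit of a glycoprotein hormone, went from 10.23, 10.57 and 10.02 to 6.76, 6.93 and 6.91, and Spock2, a matrix proteoglycan, from 10.28, 10.37 and 10.39 to 7.11, 7.14 and 7.17. The second probe set of Spock2 gave -0.65, and the mean of both -1.93. Both genes fell in the hub too, to means of 8.44 and 8.59. The remaining falls among the 15 largest were Tmem45a2 (-3.78 ± 0.12), the fibulin Efemp1 (-3.72 ± 0.16), the serpin Serpinb7 (-3.65 ± 0.31), the metallothionein Mt4 (-3.58 ± 0.34), the ubiquitin ligase Trim2 (-3.24 ± 0.27), Timp3, Selenbp2 (-3.09 ± 0.26), the chemokine scavenger Ackr4 (-2.86 ± 0.11) and Bmp2. Leaving out any 1 array ended the call of 0 of these 30 genes. The myeloid covariate ended the calls of 2, Krt6b (6.05, adjusted p = 0.191) and Mmp10 (4.50, adjusted p = 0.0584).

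**Figure D2:**
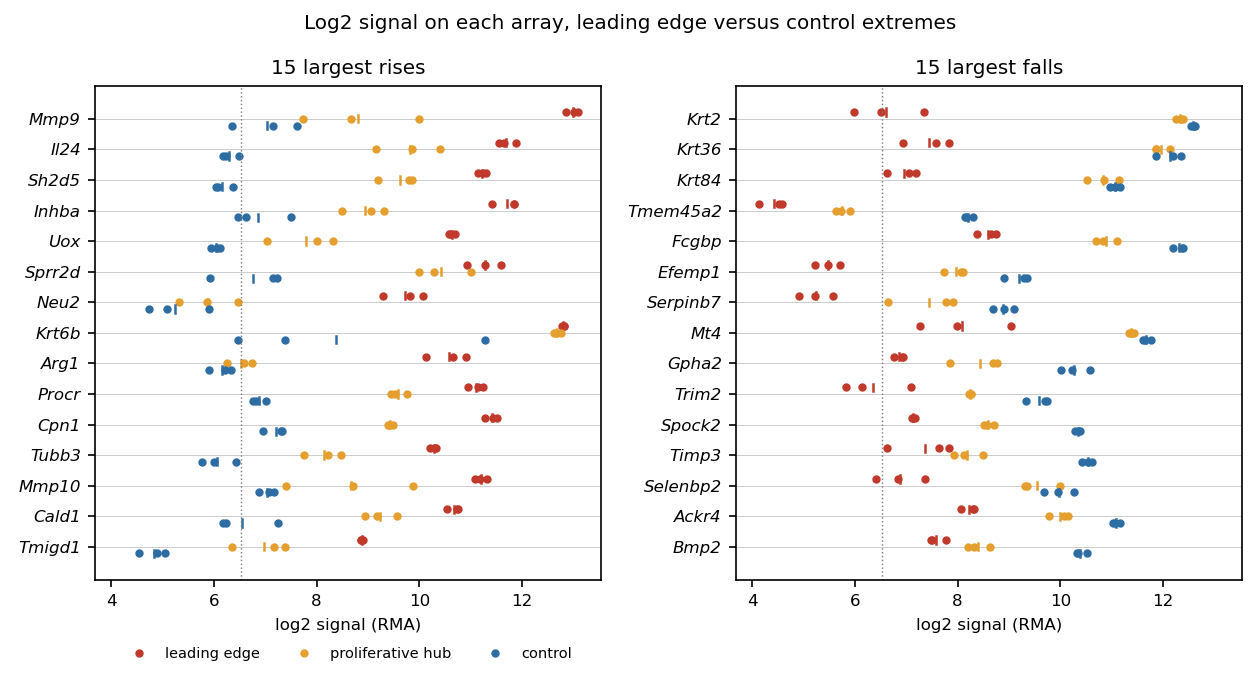
Log2 signal (x axis) of the 15 largest rises (left) and 15 largest falls (right) on each of the 9 arrays, points by group with a tick at each group mean. The dotted line marks the median of all values, 6.52. Mmp9 lies between 12.85 and 13.09 at the leading edge and between 6.35 and 7.62 in control, and hub arrays lie near control for Krt2, Krt36 and Krt84.

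Genes were then read in lists by role. Several members, among them Mmp9, Cald1, Fscn1, Tubb3, Flrt2, E2f7, Fgf18, Cdsn, Gjb2 and Gjb6, were singled out by the study from these arrays, so the counts of their lists are not independent evidence of direction. Members outside the largest called differences of a list are named for their known role, after their values had been seen. With the myeloid covariate 64 of the 75 counts of members called that were above 0 dropped by over 1.5 times, 14 of them to 0. Those of members called higher dropped to 13 for glycolysis and hypoxia, 8 for actin and myosin, 4 for matrix proteases and 0 for mitosis, and those called lower to 5 for the immediate early genes and 3 for the clock. The representative probe set matters as well: with the mean of all probe sets the differences were smaller by over 1.5 times for Cald1 (2.28), Pdlim7 (1.64), Acta2 (0.89), Inhba (2.42), Tgfa (2.27), Ltbp1 (0.68), Lama3 (0.54), Npnt (-1.36), Tob1 (-0.75), Fads3 (2.15) and H2-Ab1 (1.23), and larger for Tubb6 (2.44) and Fabp5 (1.63), all still called. Each count below is to be read against the 11.9% of all genes called higher, the 10.8% called lower and the median difference of 0.02 over all genes.

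**Figure D3:**
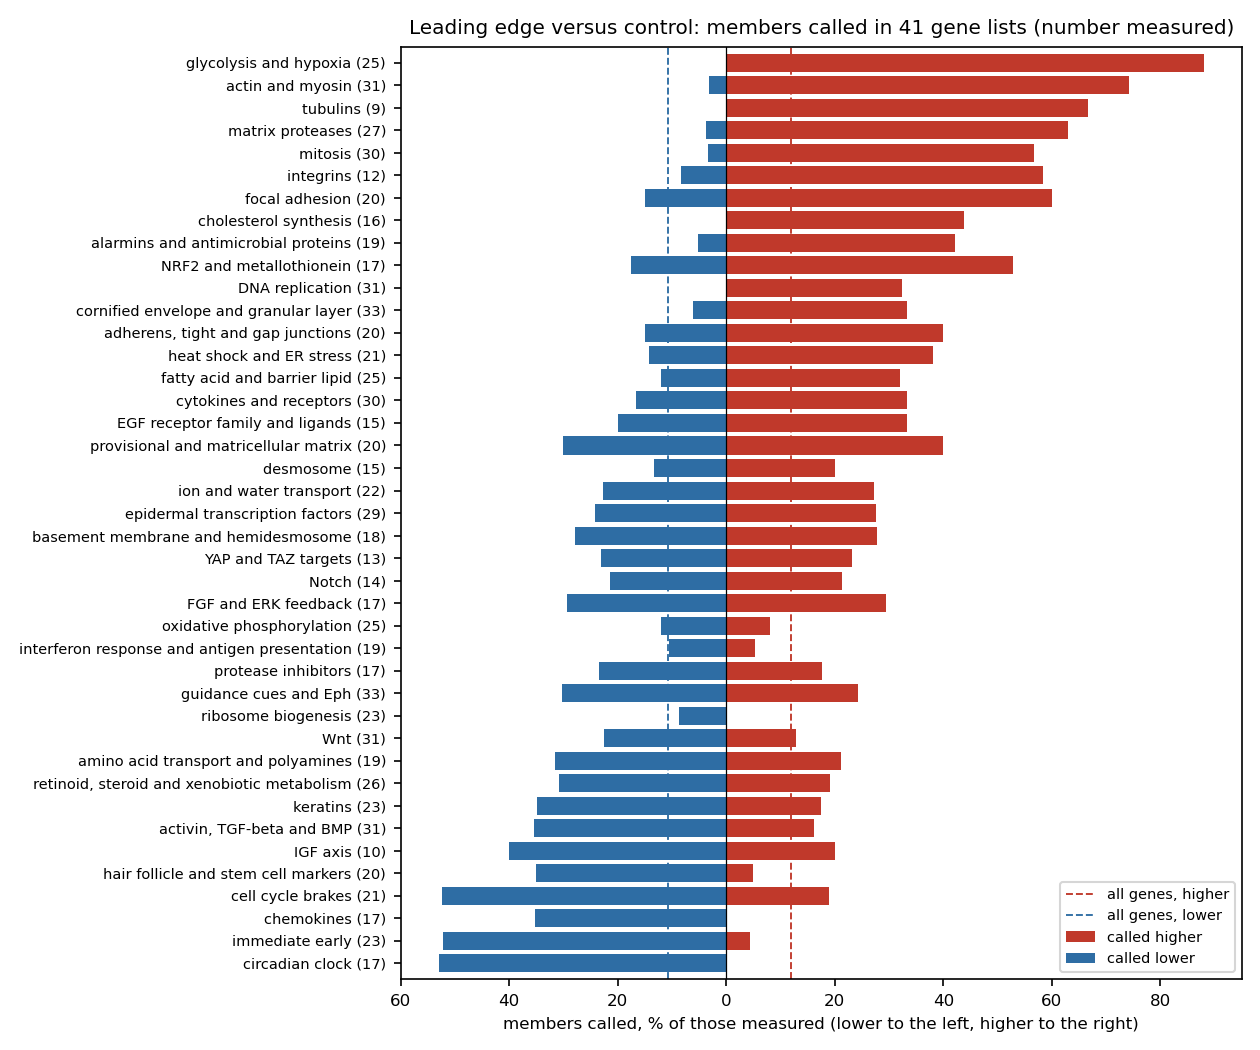
Share of measured members called higher (right, red) and lower (left, blue) at the leading edge in 41 gene lists, with the number measured in parentheses and dashed lines at the shares of all genes, 11.9% and 10.8%. Glycolysis and hypoxia genes were called higher most often, at 22 of 25, and circadian clock genes were called only lower, at 9 of 17.

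Matrix proteases were the list with the largest median. Of 27 measured, 17 rose and 1 fell, with a median of 0.98. These enzymes cut collagens, laminins and fibrin, and the metalloproteinases among them are kept in check by TIMP proteins. The collagenase Mmp13 read 11.39, 11.23 and 10.89 at the LE and 7.34, 7.38 and 8.76 in control, where replicate 3 was the highest. Stromelysin 2, Mmp10, read 11.19, 11.32 and 11.08 against 7.17, 7.08 and 6.87, and Mmp1b, a further metalloproteinase, 7.52, 7.44 and 6.93 against 4.73, 4.57 and 4.73. None of the 3 was called between hub and control (hub means 7.34, 8.67 and 5.03), and all 3 were called between LE and hub. With the myeloid covariate Mmp13 was not called (2.88, adjusted p = 0.308). The plasminogen system was higher too: Plau, urokinase, was 1.36 ± 0.15 higher and Plaur, its receptor, 1.87 ± 0.15 higher. Mmp2, gelatinase A, was the member that fell, from 9.48, 9.57 and 9.38 to 7.52, 7.69 and 7.23 (-1.99 ± 0.12, adjusted p = 4.42e-06), so the gelatinases Mmp9 and Mmp2 went opposite ways.

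Of the metalloproteinase genes, 9 measured ones lie in 1 cluster on chromosome 9 (gene order of the RefSeq annotation of GRCm38.p6), and 6 of them were called higher, 0 lower. Dcun1d5, Mmp13, Mmp12, Mmp1b, Mmp3, Mmp1a and Mmp10 formed a run of 7 consecutive measured genes called higher, the longest run of called genes of one direction among the 15606 genes placed. Mmp8, Mmp20 and Mmp7 of the same cluster differed by -0.09, -0.02 and 0.10 and were not called. Mmp1a and Mmp1b are related copies, and whether their probes share signal was not tested. Because neighbouring genes moved together, promoters of 4 of the 6 that rose are shown, chosen as windows that hold the element below, from RefSeq on GRCm38.p6, as the 250 bases before each start, with the sequence TGANTCA, the element bound by AP-1 factors, in capitals (it reads the same on both strands). They lie at chr9:7272264-7272513 (+ strand), chr9:7388027-7388276 (- strand), chr9:7445572-7445821 (+ strand) and chr9:7502092-7502341 (+ strand).
Mmp13: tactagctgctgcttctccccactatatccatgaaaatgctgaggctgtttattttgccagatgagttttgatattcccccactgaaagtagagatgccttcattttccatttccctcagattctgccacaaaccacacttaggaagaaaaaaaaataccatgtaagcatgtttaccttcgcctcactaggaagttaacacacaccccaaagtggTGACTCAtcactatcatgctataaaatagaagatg
Mmp1b: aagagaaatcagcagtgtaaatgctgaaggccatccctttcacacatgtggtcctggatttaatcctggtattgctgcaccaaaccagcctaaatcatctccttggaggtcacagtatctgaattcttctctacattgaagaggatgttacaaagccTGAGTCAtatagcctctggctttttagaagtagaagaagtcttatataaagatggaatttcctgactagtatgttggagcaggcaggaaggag
Mmp3: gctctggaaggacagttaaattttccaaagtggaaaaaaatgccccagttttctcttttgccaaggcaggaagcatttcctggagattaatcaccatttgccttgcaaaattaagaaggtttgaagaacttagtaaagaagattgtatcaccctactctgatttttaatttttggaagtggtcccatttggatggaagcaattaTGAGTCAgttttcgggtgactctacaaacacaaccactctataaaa
Mmp10: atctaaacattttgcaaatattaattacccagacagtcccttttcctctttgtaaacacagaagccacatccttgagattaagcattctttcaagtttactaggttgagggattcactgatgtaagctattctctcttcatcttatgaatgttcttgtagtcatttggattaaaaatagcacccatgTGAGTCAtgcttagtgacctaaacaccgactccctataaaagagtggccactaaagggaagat
The element starts 35 bases before the start in Mmp13, 93 in Mmp1b, 46 in Mmp3 and 63 in Mmp10. Of the other risen genes Mmp1a holds it 73 bases before the start, and Mmp12 holds it in 1 of its 2 windows, 44 bases before the start. Among the neighbours that were not called it is in the window of Mmp20, 95 bases before the start, and in 1 of 2 windows of Mmp7, 63 bases before the start, and not in that of Mmp8, so it does not separate the called from the uncalled members. It is in 8 of the 20 windows (40.0%) of the matrix protease list, for which 18 of 27 genes matched, against 6.75% of all 32841 windows. The list includes genes of this cluster, Mmp13, Mmp1b and Mmp10 among them, so its share is not independent of the windows shown. A match is a description of letters and not a bound site. No window was matched for Mmp9 or Mmp2. The AP-1 genes themselves are given with the immediate early genes.

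Inhibitors of these proteases split. Of 17 measured, 3 rose and 4 fell (median -0.01). Timp1, an inhibitor of metalloproteinases, rose from 5.96, 5.96 and 6.05 in control to 10.34, 10.24 and 9.50 at the LE, with hub values of 6.69, 6.68 and 7.46. Timp3, an inhibitor that is bound to the matrix, fell from 10.62, 10.42 and 10.54 to 7.84, 7.63 and 6.62, and all 4 of its probe sets fell (-3.16 to -2.73). Timp1 was called between LE and hub (3.09 ± 0.25, adjusted p = 7.89e-05), whereas Timp3 differed from control in the hub already (-2.35 ± 0.28, adjusted p = 0.00144) and was not called between LE and hub (-0.82 ± 0.28). Timp2 was not called (-0.29 ± 0.47). Slpi, an inhibitor of neutrophil elastase, rose from 7.66, 7.69 and 7.21 to 9.99, 11.45 and 10.86. Spink5, the inhibitor of epidermal kallikreins, was uneven at the LE (5.85, 7.43 and 7.34 against 5.47, 5.32 and 5.42) and lost the call without LE replicate 2 (1.19, adjusted p = 0.0561) or replicate 3 (1.24, adjusted p = 0.0629). Serpinb2, an inhibitor of urokinase, and Serpinb3a fell (-1.30 ± 0.17 and -1.03 ± 0.15), and close relatives of Serpinb3a may share its probes.

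Integrins, the receptors that tie cells to matrix, rose in 7 of 12 measured genes and fell in 1 (median 0.54). The count and the median include Itga5, on which the LE cells were gated, and its rise is no finding. Itgb1, the β1 chain that pairs with α5, α2 and α3, stood at 12.54, 12.61 and 12.48 at the LE and 11.22, 11.36 and 11.37 in control. Itga2, the collagen receptor chain, stood at 9.40, 9.61 and 9.22 against 8.46, 7.81 and 8.40, and Itgb6, a chain known for binding fibronectin and activating latent TGF-β, at 9.51, 9.78 and 9.42 against 8.36, 8.44 and 8.59. The laminin receptor chains Itga3 and Itga6 were higher by 0.71 ± 0.08 and 0.69 ± 0.06, the second of them used in the sort of both groups. Itga2 and Itgb6 were not called between hub and control (-0.38 ± 0.22 and -0.37 ± 0.11), while both were called between LE and hub (1.57 ± 0.22 and 1.47 ± 0.11). Itgb5, a vitronectin receptor chain, was the member that fell (-0.61 ± 0.07), and Itgav, its partner, was not called (0.11 ± 0.08). Of 20 focal adhesion genes, 12 rose and 3 fell. Actn1, which crosslinks actin at adhesions, read 12.12, 12.11 and 12.05 against 10.07, 10.02 and 10.06, and Tes, a LIM protein of adhesions, 10.14, 10.25 and 10.07 against 8.08, 8.28 and 8.01. Vcl (0.91 ± 0.08) and Fermt2 (0.89 ± 0.10), which link integrins to actin, rose less, and Fermt2 was low in both groups. The tensins Tns1 (-2.24 ± 0.13) and Tns3 (-0.93 ± 0.16) fell.

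Genes of the basement membrane and the hemidesmosome went both ways, with 5 of 18 higher and 5 lower. Lama3 and Lamb3, chains of the main epidermal laminin, were higher by 1.29 ± 0.08 and 1.25 ± 0.07, with LE values of 12.80, 12.89 and 12.73 for Lama3 against 11.40, 11.61 and 11.55 in control, though only 1 of its 2 probe sets was called (-0.20 to 1.29). Fras1 and Frem2, which anchor the basement membrane to the dermis, fell (-2.38 ± 0.12 and -1.64 ± 0.21), from 10.40, 10.63 and 10.52 to 8.42, 7.95 and 8.05 for Fras1. Npnt, a ligand of α8β1 integrin, fell by 2.09 ± 0.24, and Dst, which holds keratin at the hemidesmosome, fell by 0.88 ± 0.07 on all 4 probe sets. The β4 chain Itgb4, which joins α6 in the hemidesmosome, was higher by 0.34 ± 0.06, so these laminin chains and their receptor chains were higher while Fras1, Frem2 and Dst were lower.

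Provisional matrix genes also divided, with 8 of 20 higher and 6 lower. Fn1, fibronectin, read 11.42, 8.16 and 9.17 at the LE and 6.54, 5.93 and 6.42 in control: it was apart in all 3 arrays but spread over more than 3 log2 units among LE arrays, and LE replicate 1, the highest, was also the highest in Lyz2 and in the endothelial mean. With the myeloid covariate its difference was 0.50 (adjusted p = 0.928), without LE replicate 1 it was 2.37 and without replicate 2 it was 4.00. Has3, a hyaluronan synthase, was even, at 10.37, 10.06 and 10.10 against 6.37, 6.54 and 6.31, a 13.7-fold rise. Has2, another, was 10.56, 10.33 and 10.04 against 7.80, 8.59 and 8.43. Lgals1, galectin 1, rose by 3.37 ± 0.20. Postn, periostin, fell from 11.65, 11.60 and 11.75 to 9.90, 9.74 and 9.53.

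Genes that build and move actin rose widely, in 23 of 31 measured (1 fell, median 0.46). Cald1, caldesmon, which steadies actin filaments, was 10.53, 10.76 and 10.74 at the LE and 7.24, 6.17 and 6.23 in control, and all 5 of its probe sets rose (0.65 to 4.13). Fscn1, fascin, which bundles actin in protrusions, was 11.98 ± 0.07 against 8.83 ± 0.33 (mean ± SD, n = 3). Pdlim7, a LIM protein of stress fibres, was 10.63, 10.54 and 10.54 against 8.18, 8.02 and 7.78. In each the groups were at least 2 log2 units apart, with hub means in between (9.23, 11.04 and 9.12). Acta2, smooth muscle actin, rose by 2.0 ± 0.11 on 1 of 2 probe sets (-0.22 to 2.0), the calponin Cnn3 by 1.57 ± 0.21 and the tropomyosin Tpm1 by 1.36 ± 0.18. Actb and Actg1, the main actins, were not called (0.03 ± 0.06 and 0.18 ± 0.06). Myo5a, a vesicle motor, was the member that fell (-0.50 ± 0.12), a call lost without LE replicate 2 (-0.44, adjusted p = 0.0599). Of 9 tubulins 6 rose and 0 fell. Tubb3, known from neurons, read 10.33, 10.21 and 10.30 against 5.77, 6.0 and 6.43, Tubb2a 11.23, 11.26 and 11.27 against 9.49, 9.30 and 9.99 and Tubb6 12.88, 12.99 and 12.88 against 11.23, 11.39 and 11.55. Tubb5, a common β-tubulin, was not called (0.01 ± 0.08).

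Cell contact genes went both ways. Of 15 desmosome genes 3 rose and 2 fell. Dsc2, a desmosomal cadherin, rose from 6.67, 6.80 and 7.22 to 10.57, 10.90 and 10.81 (14.5-fold, adjusted p = 7.27e-07), while Dsg1a, a cadherin of upper layers with close copies in the mouse, fell from 10.35, 10.31 and 10.01 to 8.56, 8.27 and 8.03. The plaque genes Dsp, Jup and Pkp1 were not called (-0.05, -0.13 and -0.11). Cdsn, corneodesmosin, was uneven at the LE (6.95, 9.22 and 10.01 against 6.33, 6.56 and 6.52), and its call was lost without LE replicate 2 (2.01, adjusted p = 0.0857), LE replicate 3 (1.61, 0.0739) or any 1 control array (2.18 to 2.30, adjusted p from 0.0527 to 0.0623). Of 20 genes of other junctions 8 rose and 3 fell, and without LE replicate 2 the count of rises was 5. The connexins Gjb2 and Gjb6, which form gap junctions, read 12.67, 12.64 and 12.55 against 9.67, 9.27 and 9.28 and 9.84, 10.24 and 9.82 against 6.98, 6.43 and 6.42. Their hub means were 12.16 and 7.67, both called against control (2.75 ± 0.11 and 1.06 ± 0.21). The tight junction genes Cldn1 (-1.03 ± 0.15) and Ocln (-1.24 ± 0.15) fell. Cldn4, another claudin, was higher by 1.27, but the call was lost without LE replicate 2 (0.99, adjusted p = 0.0925), LE replicate 3 (1.38, 0.0513), control replicate 1 (1.11, 0.0802) or control replicate 3 (1.04, 0.0828). Cdh13, a cadherin without an intracellular part, fell by 1.66 ± 0.13, and Cdh1, E-cadherin, was not called (-0.23 ± 0.10).

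Keratins were called more often lower than higher, 8 against 4 of 23. Beside Krt2, Krt36 and Krt84, the falls were Krt15, a keratin of resting basal cells (10.96, 11.08 and 11.10 to 8.52, 8.72 and 8.68), Krt80 (-1.91 ± 0.14), Krt75 (-0.83 ± 0.20) and the suprabasal pair Krt10 and Krt1 (-1.33 ± 0.32). Krt10 read 11.92, 10.96 and 10.90 at the LE and 12.73, 12.71 and 12.86 in control. The rises were the stress keratins Krt6a (0.64 ± 0.08), Krt6b and Krt16 (0.89 ± 0.06), and Krt18 (0.62 ± 0.08), a keratin of simple epithelium. Krt6b was even on the LE arrays (12.82, 12.82 and 12.77) but uneven in control (6.47, 11.27 and 7.38, and the difference 3.48 without control replicate 1 and 5.88 without replicate 2), with a control SD of 2.55. In the keratin cluster on chromosome 15, 3 of 21 measured genes rose and 5 fell, and genes that went opposite ways, such as Krt6b and Krt84, lie near each other.

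Envelope genes were called more often higher than lower. Of 33 measured genes of the cornified envelope and the granular layer, 11 rose and 2 fell, with a median of 0.07. Small proline-rich proteins, envelope precursors that stressed epidermis also makes, led: Sprr2d read 10.93, 11.59 and 11.27 at the LE, with a mean of 10.42 in the hub, and 5.93, 7.15 and 7.22 in control, and Sprr2h 10.73, 11.02 and 10.97 at the LE, 9.38, 10.43 and 9.76 in the hub and 6.48, 6.79 and 7.40 in control. Klk10, a kallikrein protease, rose by 3.31, Sprr1b by 2.63 and Tgm1, the transglutaminase that crosslinks the envelope, by 2.11. The genes for loricrin and filaggrin, Lor and Flg, were dim and not called (-0.24 ± 0.19 and -0.10 ± 0.19), and Casp14, a protease of terminal differentiation, fell by 1.92 ± 0.36. Of 7 Sprr genes measured in their cluster on chromosome 3, 5 rose and 0 fell, whereas of 13 late cornified envelope genes of the same chromosome 1 rose and 0 fell. Sprr2 genes are close copies of each other, so their separate values are uncertain. Of 19 alarmin and antimicrobial genes 8 rose and 1 fell. S100a8 read 10.05, 10.70 and 10.38 at the LE and 7.85, 6.39 and 7.81 in control, and S100a9 9.91, 10.51 and 10.47 against 8.75, 7.11 and 9.06. Il33, an alarmin held in the nucleus, read 10.09, 10.29 and 9.91 against 8.28, 8.31 and 8.46. The myeloid means given above were higher on the same LE arrays. With the myeloid covariate neither S100a8 (3.08, adjusted p = 0.0718) nor S100a9 (1.69, adjusted p = 0.477) was called. Both genes are in the myeloid list and so part of the covariate, which pulls their calls toward loss. That fit therefore cannot tell which cells made them. Without control replicate 2 the difference of S100a9 was 1.40 (adjusted p = 0.00078).

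**Figure D4:**
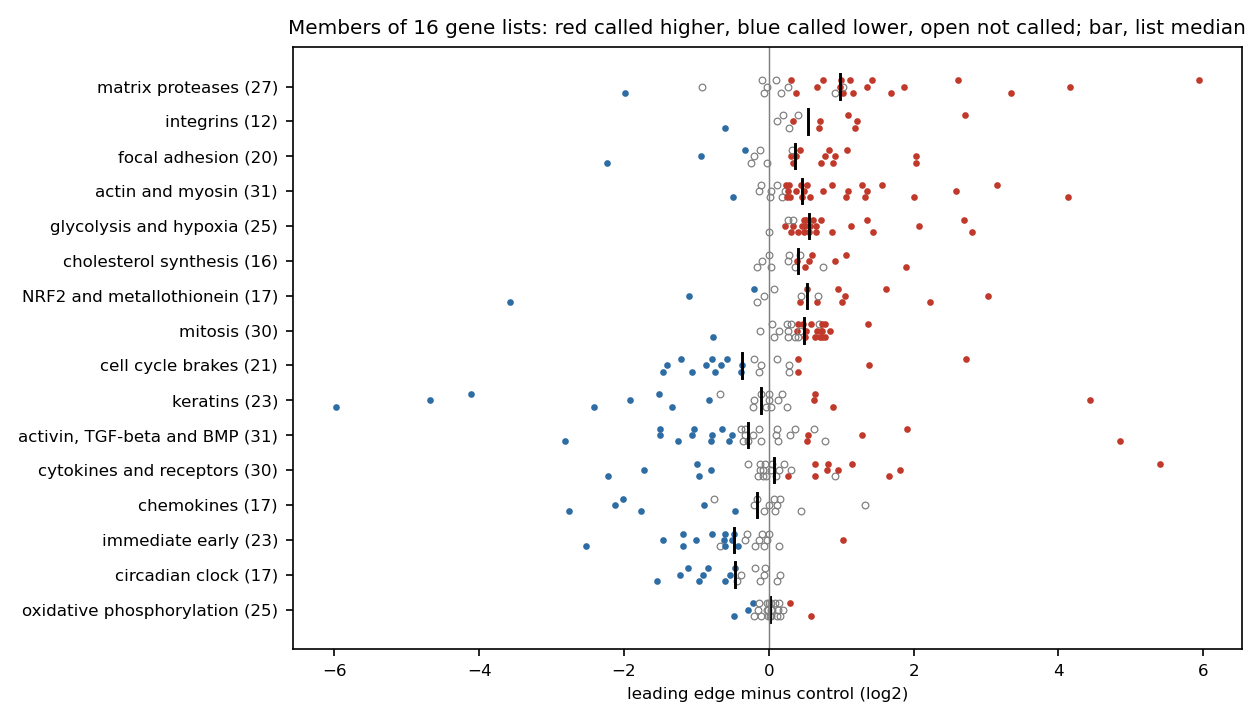
Leading edge minus control difference on the log2 scale (x axis) for each measured member of 16 lists, red where called higher, blue where called lower and open where not called, with a bar at each list median. Matrix proteases have the largest list median, 0.98, and the immediate early list the lowest, -0.48.

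Ligands of the EGF receptor family rose, and the receptor and 2 of its brakes fell, though with the myeloid covariate none of the falls was called (Egfr -0.22, adjusted p = 0.654, Errfi1 -1.78, adjusted p = 0.102, and Lrig3 -0.32, adjusted p = 0.592). Of 15 measured genes of this family, 5 rose, all ligands, and 3 fell. Tgfa stood at 10.69, 10.59 and 10.53 at the LE, 8.39, 8.25 and 8.89 in the hub and 7.19, 7.67 and 7.54 in control. Ereg, epiregulin, stood at 8.15, 7.98 and 7.90 against 5.37, 5.55 and 5.55, and Nrg1, neuregulin 1, which binds ERBB3 and ERBB4, at 9.07, 8.81 and 8.69 against 6.90, 7.55 and 7.23. Epgn and Hbegf were higher by 1.09 ± 0.18 and 0.77 ± 0.09. With the myeloid covariate neither was called (1.46, adjusted p = 0.0838, and 0.72, adjusted p = 0.101). Btc and Egf were not called (0.58 ± 0.19 and -0.11 ± 0.10), though Btc was without LE replicate 1 (0.79, adjusted p = 0.00826). Btc was also called with a mean-variance trend, array weights, further quantile normalisation, median centring, dim genes left out and the myeloid covariate. Its adjusted p lay from 0.0202 to 0.0419 in those fits. Of the receptors, Egfr fell slightly (-0.36 ± 0.08), and Erbb2, Erbb3 and Erbb4 were not called (0.03, -0.16 and 0.11). The inhibitors Errfi1 and Lrig3 fell (-1.41 ± 0.23 and -0.78 ± 0.12). Errfi1 was lower in the hub too, at 10.25, 10.56 and 9.61, with 10.33, 9.96 and 10.13 at the LE and 11.33, 11.48 and 11.85 in control.

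In FGF signalling, too, a ligand was called higher and receptors lower. Fgf18 rose from 7.41, 7.16 and 6.83 to 8.56, 8.91 and 8.68 and Fgf22 was not called (0.06 ± 0.09), while the receptors Fgfr1 (-1.06 ± 0.15), Fgfr2 (-0.96 ± 0.07) and Fgfr3 (-0.57 ± 0.07) all fell. Of the feedback genes that ERK signalling switches on, Dusp6 (0.90 ± 0.17), Etv4 (1.13 ± 0.23) and Phlda1 (1.82 ± 0.23) rose, Spry1 fell (-1.65 ± 0.16), and Spry2, Spry4, Dusp4 and Etv5 were not called (0.33, 0.41, 0.46 and 0.46). In all, 5 of 17 rose and 5 fell, or 1 and 3 with the myeloid covariate. That fit did not call Dusp6, Etv4, Phlda1, Fgfr1 or Fgfr3 (adjusted p from 0.0821 to 0.28).

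Activin and TGF-β genes were called higher and BMP genes lower. Of 31 genes of the superfamily 5 rose, all of the first kind, and 11 fell (median -0.28). Inhba, whose dimer is activin A, read 11.85, 11.85 and 11.42 at the LE, 8.49, 9.31 and 9.06 in the hub and 6.46, 6.63 and 7.50 in control, a 28.8-fold difference on 1 of 2 probe sets (0.0 to 4.85). Tgfb1 read 9.61, 9.54 and 9.47 against 8.27, 8.30 and 8.18. Ltbp1, which holds TGF-β latent in the matrix, read 9.99, 9.96 and 10.03 against 8.14, 8.34 and 7.78. The receptors Tgfbr1 (0.53 ± 0.11) and Tgfbr2 (0.54 ± 0.10) were the other rises, and the activin antagonists Fst and Fstl3 were not called (0.36 ± 0.28 and -0.14 ± 0.11). On the other side Bmp2 fell from 10.34, 10.33 and 10.52 to 7.49, 7.77 and 7.50 and Bmp4 from 8.68, 8.15 and 8.48 to 7.38, 6.87 and 7.30, and Bmp7 fell less (-0.80 ± 0.11). Id3 and Id4, targets of BMP signalling that block helix-loop-helix factors, fell (-1.50 ± 0.10 and -1.50 ± 0.13). Id1 and Id2, of the same family, were not called (0.10 ± 0.09 and -0.33 ± 0.14), nor was the BMP receptor Bmpr1a (-0.11 ± 0.10). Sostdc1, an antagonist of BMP and Wnt, fell by 1.06 ± 0.18. With the myeloid covariate 3 genes of the superfamily were called higher and 3 lower. Bmp4, Bmp7, Tgfbr1, Tgfbr2 and Sostdc1 were not called in that fit (adjusted p from 0.0853 to 0.593).

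**Figure D5:**
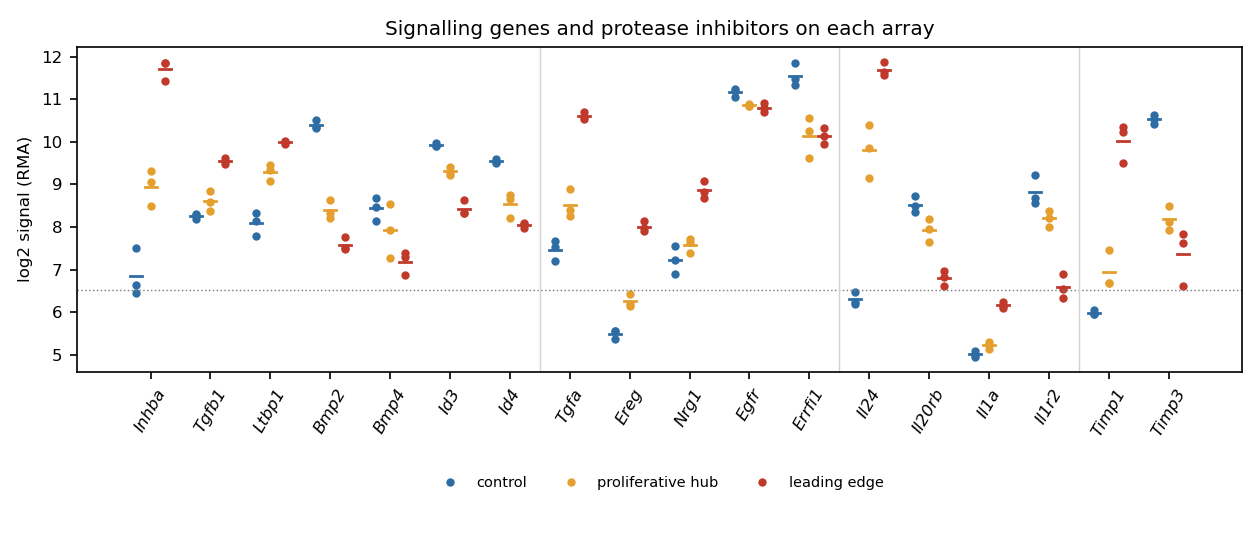
Log2 signal (y axis) of 18 signalling genes and protease inhibitors on each of the 9 arrays, with a tick at each group mean and the dotted line at the median of all values. Inhba, Tgfb1, Ltbp1, Tgfa, Ereg, Nrg1, Il24 and Timp1 are higher at the leading edge than in control on every array. Bmp2, Id3, Id4, Il1r2 and Timp3 are lower on every array.

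Of 31 Wnt genes 4 were called higher (12.9%), near the 11.9% of all genes, and 7 lower (22.6%), against 10.8% (median 0.01). Without LE replicate 2 or control replicate 3 the count of falls was 4. Wnt5a, a ligand known for β-catenin-independent signalling, rose from 6.31, 5.66 and 6.05 to 8.68, 9.03 and 8.85, and Porcn, which lipidates Wnt proteins for secretion, from 9.35, 9.35 and 9.28 to 10.49, 10.51 and 10.40. Wnt3 fell from 9.15, 8.91 and 8.62 to 7.63, 7.41 and 7.46. Wnt4 and Wnt10a were not called (0.12 and 0.09). Of the receptors Fzd6 rose (0.56 ± 0.09) and Ror2, a receptor of Wnt5a, fell (-0.58 ± 0.10). Axin2, a feedback target of β-catenin, fell by a small amount (-0.32 ± 0.07). Of 14 Notch genes 3 rose and 3 fell. The ligand Jag1 was higher (0.70 ± 0.06), and the receptor Notch1 (-0.72 ± 0.09) and the target Hes1 (-0.95 ± 0.14) were lower.

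Cytokine and receptor genes rose in 10 of 30 measured and fell in 5 (median 0.07), with Il24 the largest change. Il1a, an interleukin 1 held in keratinocytes, was dim on this array at 6.09, 6.15 and 6.24 but apart from control (5.0, 4.95 and 5.08). Il1f9, an interleukin 36, read 11.27, 11.47 and 11.42 against 9.10, 9.90 and 10.21. Il4ra, the receptor chain of interleukins 4 and 13, read 9.77, 9.60 and 9.65 against 7.79, 8.0 and 7.79. Among the falls, Il1r2, the decoy receptor of interleukin 1, went from 8.67, 9.23 and 8.56 to 6.89, 6.55 and 6.34, and Il20rb, a receptor chain of Il24, from 8.35, 8.49 and 8.72 to 6.96, 6.83 and 6.62. Il24 and its receptor chain moved in opposite directions, with Il20ra not called (-0.12 ± 0.09). Il6ra fell by 0.99 ± 0.07. Il6, Csf2, Csf3 and Tslp lay near background and were not called (-0.04, 0.10, 0.05 and -0.05).

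Chemokines were called only lower, in 6 of 17 measured (median -0.16). Ccl27a, which draws skin-homing T cells, fell from 11.34, 11.48 and 11.51 to 9.03, 8.71 and 8.31, on all 4 probe sets (-3.18 to -1.77). Cxcl14, a chemokine made by resting epidermis, fell from 11.65, 11.53 and 11.48 to 9.52, 9.19 and 9.57. Ccl20, which draws Langerhans cell precursors, fell from 7.83, 7.96 and 9.16 to 6.54, 6.41 and 6.67, and Cxcl10 from 8.09, 7.55 and 9.19 to 5.79, 6.04 and 6.94, with control replicate 3 the highest array for both. Cxcl16 and Cx3cl1 fell (-0.89 ± 0.14 and -0.46 ± 0.10). With the myeloid covariate Ccl20, Cxcl10, Cxcl16 and Cx3cl1 were not called (adjusted p from 0.0828 to 0.8). The neutrophil chemokines Cxcl1, Cxcl2 and Cxcl5 were not called (0.12 ± 0.43, 1.33 ± 0.72 and 0.44 ± 0.25). Cxcl2 read 8.59, 5.21 and 7.71 at the LE, high on the arrays that were high in myeloid markers, and was called without LE replicate 2 (2.31, adjusted p = 0.00396). Of 19 genes of the interferon response and antigen presentation, 1 was higher (Usp18, 0.51 ± 0.09) and 2 were lower (Psmb8, -0.69 ± 0.12, and H2-K1, -0.24 ± 0.06), and H2-K1 lost the call without LE replicate 3 (-0.21, adjusted p = 0.0639) or control replicate 1 (-0.23, adjusted p = 0.0542).

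Immediate early genes, which cells switch on within minutes of a stimulus, fell in 12 of 23 measured and rose in 1 (median -0.48). They include the AP-1 genes whose element is shown above. Jun read 10.93, 10.70 and 10.67 at the LE, 11.22, 11.12 and 10.90 in the hub and 11.98, 11.95 and 11.90 in control. Atf3 read 11.47, 11.47 and 11.64 at the LE, 12.05, 11.83 and 11.62 in the hub and 12.70, 12.70 and 12.72 in control, and Nr4a1, an orphan nuclear receptor, 9.13, 8.79 and 9.17 at the LE, 10.04, 10.01 and 9.32 in the hub and 11.58, 11.54 and 11.56 in control. In all 3 genes the LE and hub arrays lay below every control array. Btg2 and Ier2 fell (-1.46 ± 0.13 and -1.0 ± 0.16), Fos was not called (-0.19 ± 0.06), and Rhob, a small GTPase, rose by 1.03 ± 0.09. Fos was called lower with a mean-variance trend (adjusted p = 0.000956), array weights (0.0417) or the mean of all probe sets (0.0407). Jun, Atf3 and Fos stayed above the median of all values on every array.

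Transcription factors of the epidermis moved in both directions (8 of 29 higher, 7 lower, and 5 higher without LE replicate 2). Hmga2, a chromatin protein of embryonic and growing cells, rose from 6.37, 6.66 and 6.45 to 9.52, 9.16 and 9.32 on all 4 probe sets. Elk3, an ETS factor, rose from 7.15, 7.37 and 7.66 to 9.28, 9.35 and 9.50, and Elf3, another, by 1.24 ± 0.16. Hopx, an unusual homeodomain protein, fell from 11.30, 11.52 and 11.31 to 9.88, 9.84 and 10.09. Sox6, Sox7 and Gata3 fell (-1.59 ± 0.23, -1.23 ± 0.13 and -1.23 ± 0.11). Snai2, Twist1, Zeb1 and Zeb2, the factors of epithelial to mesenchymal transition, were not called (0.04, 0.03, -0.02 and 0.02), and the last 3 were dim. Of 13 YAP and TAZ genes 3 rose and 3 fell, with Tead4, a DNA-binding partner of YAP, higher (8.60, 8.43 and 8.39 against 6.10, 6.95 and 5.92), and Ptpn14, a YAP inhibitor, lower (7.57, 7.37 and 7.75 against 9.68, 9.71 and 9.50). Of 20 hair follicle and stem cell markers 1 rose and 7 fell. Lgr4 and Lgr6, receptors of R-spondins, fell (-1.24 ± 0.16 and -0.57 ± 0.12), while Lgr5, Sox9 and Lhx2, markers of the follicle, were not called (0.03, -0.18 and -0.06).

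Many cell cycle genes were higher at the LE than in control, with small list medians and larger differences for some members. The study reported that LE cells did not take up BrdU, a label of DNA synthesis. It also reported cell cycle genes, such as Ccna2 and Ccnb1, as higher than control in both wound regions. Those were duplicate arrays of cells sorted without an α5 integrin gate. Of 30 mitosis genes 17 rose and 1 fell (median 0.48), and of 31 DNA replication genes 10 rose and 0 fell (median 0.21), or 5 rose without LE replicate 1 and 6 without control replicate 1. With the myeloid covariate 0 mitosis genes and 1 DNA replication gene were called higher. Cep55, needed for abscission, was 8.15, 7.66 and 7.84 at the LE and 6.95, 6.51 and 6.09 in control. Plk1, a mitotic kinase, was 10.22, 10.20 and 9.99 against 9.31, 9.60 and 9.16. Rrm2, a ribonucleotide reductase subunit, was 11.45, 11.34 and 11.49, with a hub mean of 11.08, against 10.13, 10.17 and 10.43. Mki67, Top2a and Pcna, common markers of cycling cells, were not called (0.07 ± 0.08, 0.25 ± 0.12 and -0.02 ± 0.10). Of the brakes of the cycle 4 of 21 rose and 11 fell (median -0.37). E2f7 and E2f8, repressors that oppose E2F activity, rose from 5.66, 5.35 and 5.78 to 8.39, 8.34 and 8.21 and from 7.72, 7.64 and 7.73 to 9.33, 8.94 and 8.96. Btg2, Tob1 (-1.40 ± 0.11), Gadd45a (-1.21 ± 0.12) and Gas1 (-1.06 ± 0.09), which restrain growth, fell. The kinase inhibitor Cdkn1a was slightly higher (0.40 ± 0.06) and Cdkn1b lower (-0.78 ± 0.16). Of 23 ribosome biogenesis genes 0 rose and 2 fell, Myc (11.38, 11.46 and 11.41 to 10.40, 10.43 and 10.57) and Ncl (-0.63 ± 0.10).

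Genes of glycolysis and the response to hypoxia rose in 22 of 25 measured, the highest share of any list, and 0 fell (median 0.55). Slc16a3, the transporter that exports lactate, read 11.08, 11.21 and 11.05 at the LE, 9.75, 9.65 and 10.20 in the hub and 8.58, 8.30 and 8.06 in control. Car9, a carbonic anhydrase on the cell surface, read 9.29, 9.29 and 9.09 at the LE, 7.50, 7.41 and 7.51 in the hub and 6.36, 6.42 and 6.80 in control. Bnip3, which acts in mitophagy, read 11.44, 11.69 and 11.48 against 9.60, 9.51 and 9.25, and Vegfa, the angiogenic factor, 10.97, 11.35 and 10.88 against 9.88, 9.64 and 9.37. For Vegfa and Ndrg1 (1.35 ± 0.07) the hub means, 9.84 and 10.66, lay within or near the control range. Hif1a, the oxygen-regulated factor of this response, rose by 0.88 on 1 of 2 probe sets (-0.07 to 0.88). The enzymes of the pathway itself rose by less: Tpi1 (0.72), Pgk1 (0.57) and Ldha (0.49). Of 25 oxidative phosphorylation genes 2 rose and 3 fell (median 0.02), or 1 fell without LE replicate 2 or 3 or control replicate 1 or 3.

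The promoters of the 2 genes with the largest differences in this list are shown because both hold ACGTG, the core of the element bound by hypoxia-inducible factors (CACGT on the other strand). They lie at chr11:120948817-120949066 and chr4:43506776-43507025 on the + strand of GRCm38.p6, from RefSeq, 250 bases before the start, with each match in capitals.
Slc16a3: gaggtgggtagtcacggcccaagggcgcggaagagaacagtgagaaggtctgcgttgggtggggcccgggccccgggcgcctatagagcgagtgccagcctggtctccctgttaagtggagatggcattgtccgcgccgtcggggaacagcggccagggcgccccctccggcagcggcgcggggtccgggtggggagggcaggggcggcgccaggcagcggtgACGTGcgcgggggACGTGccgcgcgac
Car9: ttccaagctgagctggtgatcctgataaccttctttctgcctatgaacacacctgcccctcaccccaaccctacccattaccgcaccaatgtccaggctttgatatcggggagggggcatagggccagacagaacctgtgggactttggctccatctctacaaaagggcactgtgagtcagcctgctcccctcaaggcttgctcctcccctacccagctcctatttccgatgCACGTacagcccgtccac
In Slc16a3 the matches start 27 and 14 bases before the start, and in Car9 18 bases before it. The letters are in 18 of 32 windows (56.2%) of the list, for which 24 of 25 genes matched, against 16.6% of all windows, and they overlap CACGTG wherever that longer element occurs. A match in these windows is a description only.

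Lipid, redox and amino acid genes added further rises. Of 16 genes of cholesterol synthesis 7 rose and 0 fell (median 0.41). Sqle, squalene epoxidase, rose from 8.39, 8.04 and 7.59 to 9.86, 10.05 and 9.81 and Fdps from 8.86, 8.94 and 8.02 to 9.78, 9.68 and 9.57, where control replicate 3 was lowest. Sc5d (0.50 ± 0.09) had probe sets on both sides (-0.76 to 0.50) and reversed to -0.20 when they were averaged. Of 25 genes of fatty acids and barrier lipids 8 rose and 3 fell. Fads3, a relative of the desaturases, rose from 6.47, 6.17 and 6.16 to 9.45, 9.32 and 9.33, and Cers3, the ceramide synthase of the skin barrier, from 6.54, 6.30 and 6.47 to 8.05, 8.0 and 7.92. Fabp5, the fatty acid carrier of epidermis, rose by 0.93 and was not called between LE and hub (0.04 ± 0.11). Sptlc3, which starts ceramide synthesis, fell by 1.29 ± 0.24.

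Of 17 NRF2 targets and metallothioneins 9 rose and 3 fell (median 0.53). Hmox1, heme oxygenase 1, rose from 7.21, 6.66 and 7.17 to 9.90, 10.04 and 10.18, Gsta4, a glutathione transferase, from 9.29, 9.16 and 8.99 to 11.28, 11.40 and 11.45 and Srxn1 by 1.62 ± 0.13. Nqo1, a classical target of the factor, was higher by 1.05 and was not called between LE and hub (0.05 ± 0.16). Mt4, the metallothionein of differentiated epithelium, fell from 11.64, 11.61 and 11.77 to 9.03, 7.98 and 7.27. Odc1, which makes the polyamine putrescine from the ornithine that Arg1 supplies, rose from 8.93, 9.05 and 8.76 to 11.33, 11.36 and 11.33 (5.37-fold), and Sat1, which breaks polyamines down, fell by 0.91 ± 0.08. Srm, the next synthase, was not called (0.13 ± 0.08). The transporters Slc6a6, of taurine, and Slc38a2, of neutral amino acids, fell (-1.46 ± 0.09 and -0.97 ± 0.07). In the amino acid and polyamine list 4 of 19 rose and 6 fell. Of 21 genes of heat shock and stress of the endoplasmic reticulum 8 rose and 3 fell. Trib3, a pseudokinase of that stress response, rose from 6.80, 6.73 and 7.23 to 9.43, 9.46 and 9.17, Sdf2l1 and Pdia4, which act in folding in the endoplasmic reticulum, rose by 1.04 and 0.83, and Hspa1b, the inducible heat shock protein 70, fell by 0.94 ± 0.07. Ddit3 and Atf4 were not called (-0.23 and -0.04).

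Retinoid genes changed on both sides of the pathway. Of 26 genes of retinoid, steroid and xenobiotic metabolism 5 rose and 8 fell. Cyp26b1, which breaks down retinoic acid, rose from 7.85, 8.26 and 7.97 to 10.65, 10.60 and 10.65. Aldh1a3, which makes it, read 8.97, 9.60 and 7.26 against 6.28, 7.03 and 6.26 and lost the call without LE replicate 1 (1.90, adjusted p = 0.0536). Crabp2, which carries retinoic acid to the nucleus, rose by 1.38 ± 0.21, and the receptor Rarg fell from 10.26, 10.26 and 10.40 to 9.21, 9.29 and 9.23. Sult2b1, which sulfates cholesterol, rose by 2.29 ± 0.16. The detoxifying enzymes Ephx1, Sult5a1 and Aldh3a1 fell (-1.25 ± 0.09, -1.25 ± 0.12 and -1.23 ± 0.23).

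Circadian clock genes fell in 9 of 17 measured and rose in 0 (median -0.47). Rora, a nuclear receptor that drives Arntl, went from 11.76, 11.76 and 11.67 in control to 10.27, 10.14 and 10.18 at the LE. Arntl, the core activator also called BMAL1, went from 9.45, 9.61 and 9.23 to 8.24, 8.28 and 8.11 and was low in the hub too (mean 8.07, LE minus hub 0.15 ± 0.13, not called), and the calls of Arntl, Hlf and Cry2 were lost with the myeloid covariate. Hlf (-1.11 ± 0.13), Nr1d2 (-0.96 ± 0.10), Per1 (-0.91 ± 0.08) and Cry2 (-0.84 ± 0.14) fell as well. Clock, the partner of Arntl, and the repressors Per2, Per3 and Cry1 were not called (-0.44, -0.12, -0.19 and -0.06). The labels give no hour of collection for either group. CACGTG, the element bound by the clock activators, is in 6 of the 20 promoter windows of the list (30.0%), for which 15 of 17 genes matched, against 6.02% of all windows.

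Guidance cues, growth factors of the insulin family and transporters were mixed. Of 33 guidance and Eph genes 8 rose and 10 fell, or 5 rose without LE replicate 2 or 3. Flrt2, a repellent of neurons that also binds latrophilins, rose from 8.41, 7.84 and 7.85 to 11.30, 11.17 and 11.36 (hub 9.0, 8.85 and 9.14) and its relative Flrt3 from 10.51, 10.49 and 10.46 to 11.52, 11.56 and 11.45, where the hub mean, 10.27, was no higher than control. Sema4d, a semaphorin, rose by 1.77 ± 0.11, with its receptor Plxnb1 lower (-0.42 ± 0.10). The receptors Ephb6 and Epha4 fell (-1.25 ± 0.13 and -1.0 ± 0.13). In the IGF axis 2 of 10 rose and 4 fell, or 2 fell without LE replicate 1 or control replicate 1. Irs1, the substrate that carries the signal of insulin and IGF receptors, fell from 8.06, 7.82 and 8.33 to 5.86, 6.18 and 6.18, and Igf1r was slightly higher (0.34 ± 0.08). Of 22 ion and water transport genes 6 rose and 5 fell. Car2, a cytosolic carbonic anhydrase, was 11.48, 11.30 and 11.33 at the LE, 11.27, 11.47 and 11.55 in the hub and 7.79, 8.41 and 7.90 in control, and Kcnk1, a leak potassium channel, 9.86, 10.04 and 10.03 at the LE, 8.36, 8.62 and 8.75 in the hub and 7.40, 6.87 and 6.86 in control. Car2 was not called between LE and hub (-0.06 ± 0.15), whereas Kcnk1 was (1.40 ± 0.15).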

How the data were processed

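RNA of sorted tail epidermal basal cells was amplified and hybridised to Affymetrix mouse PM strip arrays. The deposited values are log2 signals per probe set, made by the authors with RMA, which corrects background, equalises the distributions of the arrays and summarises probes. The version of RMA was not given in the sources used here. Quantile normalisation forces equal distributions, so a shift of all genes together cannot be seen, and no depth applies to arrays: their number, 3 per group, limits the precision.

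Of 45141 probe sets, 104 controls were set aside, 28898 carried 1 gene symbol, 551 several and 15588 none in the platform annotation; 28689 were found in RefSeq (GRCm38.p6) by gene ID. The brightest probe set on average represented each of 17097 genes. All 9 arrays were fitted with 3 group means in limma 3.58.1 (R 4.3.3) with empirical Bayes moderation, and p-values were adjusted by Benjamini-Hochberg. In data simulated on these genes, with 200 changed and 10 draws, 4.8% of calls were false. Of changes of 0.5, 1 and 2 log2 units 51.8%, 90.4% and 99.1% were recovered. Noise was drawn independently for each gene and the hub was set equal to control, so these rates need not hold for the arrays.

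The members, gene lists and tests were chosen with earlier results of these data known. Named genes were the 15 largest rises and 15 largest falls among called genes with groups apart and a higher mean above the median of all values, up to 6 called members per list with the largest change in each of 41 programmes and 11 marker lists, the genes of the sort, and their partners. Alternatives were the replicate number as a block, a mean-variance trend, array weights, further quantile normalisation, median centring, leaving out dim genes, averaging or testing every probe set, the 6 arrays alone, a myeloid covariate, fold minimums and leaving out each array. Promoter windows came from RefSeq and were searched for exact letters with Python 3.11.15.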

Additional observations from a re-analysis of the deposited data

Results flagged for a closer look

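Of 16139 probe sets that do not carry exactly 1 gene symbol, and so stand outside the comparison by gene, 975 were called higher at the LE and 1612 lower in the same design. They drew attention as a signal in data that the comparison did not use, and they are not named here.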

How the results depend on the processing

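The count as reported was 3891 called genes, 2041 higher and 1850 lower. With the mean of the myeloid list as a covariate it was 735 (422 higher, 313 lower), with every probe set tested it was 6278 (3155 and 3123), with a 2-fold minimum added 803 (453 and 350), with over 2-fold in every pair with the same number 515 (305 and 210), and with over 2-fold in all 9 pairs 427 (258 and 169). The last 3 differ by their own construction. Leaving out 1 array gave from 3008 to 3691 calls, 1613 to 1936 higher and 1395 to 1758 lower, lowest without LE replicate 3. Between 2930 and 3594 of the calls were kept. With the replicate number as a block 3661 genes were called (1916 higher, 1745 lower), 3501 of them shared. Deviations of same-numbered LE and control arrays correlated at 0.045, -0.005 and 0.082, and the others from -0.09 to 0.036. With 3 arrays per group these values cannot settle whether the numbers pair the samples. The remaining alternatives gave from 3378 to 4007 calls. Median centring changed the split to 2234 higher and 1681 lower.

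Over the named genes and alternatives 6627 values kept direction and call, 249 lost the call, 22 gained it and 4 reversed: Sc5d to -0.20 with the mean of all probe sets, and Insr to 0.14, Lyz2 to -0.99 and Cxcl2 to -2.64 with the myeloid covariate. With that covariate list medians reversed for the basement membrane (-0.07), cytokines (-0.05), the IGF axis (0.11), myeloid (-0.16), endothelial (-0.05) and T cell markers (-0.07). The myeloid markers, Lyz2 among them, make up the covariate, so their own reversals are no finding. The T cell median was -1.28 with dim genes left out, and the oxidative phosphorylation median -0.01 with the mean of all probe sets and from -0.01 to 0.04 on leaving out 1 array. Of 300 called genes that are named 141 lost their call with the covariate and 26 without at least 1 array. The causes were not tested. Signals near background limit what low genes can show.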

Other observations

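Genes called side by side were not limited to the metalloproteinases. Over 15606 genes placed in the RefSeq order of GRCm38.p6, 14 runs of at least 4 neighbouring measured genes were called in 1 direction, and how many such runs another order would give was not tested. Sprr2d, Sprr2f, Sprr2h and Sprr2i on chromosome 3 were higher, though Sprr2i lost the call without LE replicate 3 (0.38, adjusted p = 0.0707), without LE replicate 2 and without any control array. Higher as well were Car9, Tpm2, Tln1 and Creb3 on chromosome 4, and Phlda2, Nap1l4, Tnfrsf22 and Tnfrsf23 on chromosome 7. Ndufa4l2, Shmt2, Nxph4 and Lrp1 on chromosome 10 were higher too. Tmem123, Birc2, Birc3, Yap1 and Cfap300 on chromosome 9 were lower, though the call of Yap1 was lost with the mean of all its probe sets. Ech1, Lgals4, Lgals7 and Eif3k on chromosome 7 were lower.

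A few genes varied far more between arrays of 1 group than the others. The median SD over all genes was 0.11 log2 units at the LE, 0.09 in the hub and 0.12 in control. Among called genes 12 had an SD over 0.9 at the LE, among them Ctss (1.69), a lysosomal protease, Fn1 (1.67), Cdsn (1.59), Ly6g6c (1.59) and Lyz2 (1.46). In control 5 did, with Krt6b (2.55), Tmem45b (1.16) and Vim (1.06) the most uneven.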
